A study of Catharanthus roseus with 15 samples.

Results

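Among the genes of *Catharanthus roseus* leaves, 175 moved in opposite directions 3 h after ethephon (ETH) and methyl jasmonate (MJ). Of these, 84 were higher after ETH and lower after MJ than in untreated leaves (the ETH-up genes), and 91 were higher after MJ and lower after ETH (the MJ-up genes). A gene was taken where its mean level was past a 1.5-fold change (0.585 on the log2 scale) above the 0 h level for one hormone and past the same change below it for the other, and where the 3 ETH 3 h and the 3 MJ 3 h libraries did not overlap. Levels are CPM, each count scaled to a library total of 1000000, with 0.5 CPM added before a ratio was taken. A largest group mean of at least 3 CPM was required, which 15676 of the 33829 genes in the count table reached, and 12077 genes had no count in any library. The 175 genes are 0.517% of all genes and 1.12% of those at the minimum level. A pair of further genes was left out of the selection beforehand. The genes were chosen by their levels at 0 h, ETH 3 h and MJ 3 h, so these values are given as a description with no test.

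The plants were seedlings of the cultivar Vitae Rose Red, and every library came from leaf RNA. The control group was untreated and sampled at 0 h, and the 4 treated groups (MJ 3 h, MJ 24 h, ETH 3 h and ETH 24 h) are named by the hormone sprayed on the leaves (at 100 µM) and the time until sampling. Each of the 5 groups has 3 libraries. The sample labels and the study's methods differ in the age of the seedlings. A water spray is described in the methods, and no water-sprayed library was analysed here. In any comparison with 0 h, handling and the time passed cannot be told apart from treatment. At 3 h this holds for time of day as well. The groups of a common time share the time since the spray. Clock times and the handling of each group are not given in the sources used here. The sources used here do not give how many plants went into a library, and the spread between libraries may in part be technical.

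Ethephon breaks down inside plant tissue and releases ethylene, a gaseous hormone of ripening, senescence and stress whose signal reaches the nucleus through the EIN3 and EIL transcription factors. Methyl jasmonate is converted to an active amino acid conjugate that brings about the loss of JAZ repressor proteins, and the MYC transcription factors they hold back are then free to act. In Arabidopsis the pathways act together on some defence genes and oppose each other on others. In *C. roseus* both hormones are used as elicitors of the monoterpenoid indole alkaloids (MIAs), the compound class that includes vinblastine and its precursors.

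Opposite movement was the minority response at 3 h. At the minimum level, 1313 genes were past 1.5-fold above 0 h after both hormones and 1369 were past it below after both. Taking each hormone by itself, 2417 genes were above and 1877 below after ETH, and 2650 were above and 2662 below after MJ. In such leaf samples, fewer cells of a type and less RNA per cell cannot be told apart. Without the condition that the libraries of the hormones do not overlap, the opposite sets would hold 98 and 114 genes.

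**Figure D1:**
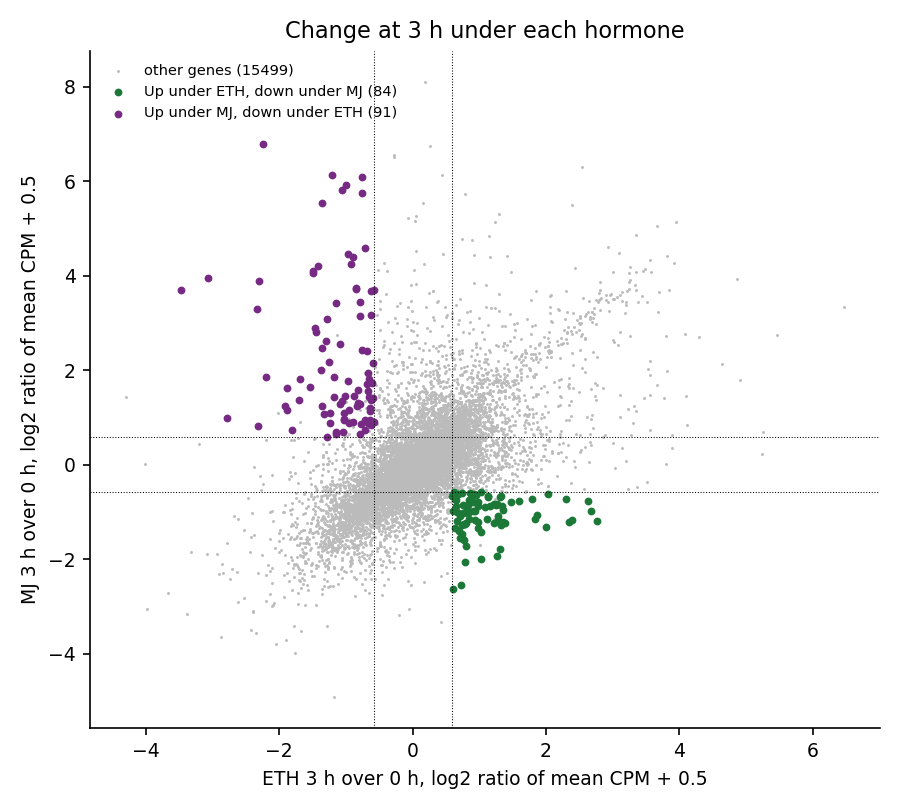
Each point is a gene with a largest group mean of at least 3 CPM, placed by its log2 ratio to 0 h at 3 h after ETH (horizontal) and after MJ (vertical), with dotted lines at a 1.5-fold change. The 84 ETH-up genes lie at the lower right and the 91 MJ-up genes at the upper left, where they reach 6.80 on the MJ axis.

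The sets differed in how far their members moved. Among the ETH-up genes the log2 ratio to 0 h had a median of 0.94 after ETH (0.59 to 2.77) and of -0.98 after MJ (-2.63 to -0.59). Among the MJ-up genes it had a median of 1.65 after MJ (0.59 to 6.80) and of -1.02 after ETH (-3.48 to -0.59). The MJ-up set thus had a long upper tail, with 37 members past a log2 ratio of 2, 27 past 3 and 14 past 4 after MJ. In the ETH-up set, 7 members were past 2 after ETH and 0 were past 3. A change of over 2-fold under both hormones was seen in 17 ETH-up and 37 MJ-up genes. Just inside the threshold were CRO_008429 at 1.02 for ETH and -0.59 for MJ and CRO_024626 at -0.59 for ETH and 0.91 for MJ. Just outside were CRO_028311 at 0.58 and -1.69 and CRO_023862 at -1.72 and 0.57.

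The ETH-up genes were of moderate level. Their group mean CPM had a median of 22.4 at 0 h, 47.5 at ETH 3 h, 35.4 at ETH 24 h, 11.9 at MJ 3 h and 31.7 at MJ 24 h. The highest of the 5 group means stood at ETH 3 h for 64 genes, at ETH 24 h for 17 and at MJ 24 h for 3, and the lowest stood at MJ 3 h for 83 of the 84. In 28 of the genes the 0 h, ETH 3 h and MJ 3 h libraries formed groups that did not overlap at all. The rule had already set the hormones apart at 3 h, and the share over all genes was not computed.

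The MJ-up genes were spread over a wider range of levels. Their group mean CPM had a median of 14.8 at 0 h, 6.38 at ETH 3 h, 6.84 at ETH 24 h, 70.2 at MJ 3 h and 9.96 at MJ 24 h. All 91 had their highest group mean at MJ 3 h, and 7 of them were over 1000 CPM there. The lowest group mean stood at ETH 24 h for 55 genes, at ETH 3 h for 32 and at MJ 24 h for 4. In 35 of the genes the 0 h libraries overlapped with neither hormone at 3 h, again with no share over all genes computed.

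Levels were also summed over the members of a set in each library. The rule had fixed the order of the ETH 3 h and MJ 3 h sums, with the 0 h mean between them, so these sums are a description. The 84 ETH-up genes together held 4212 to 5720 CPM in the 0 h libraries, 10279 to 12431 at ETH 3 h, 9768 to 10775 at ETH 24 h, 1635 to 3131 at MJ 3 h and 5940 to 9300 at MJ 24 h. The 91 MJ-up genes together held 3931 to 4863 CPM in the 0 h libraries, 1996 to 2406 at ETH 3 h, 2092 to 2407 at ETH 24 h, 21097 to 44004 at MJ 3 h and 2797 to 4501 at MJ 24 h. For the MJ-up sum the lowest MJ 3 h library was over the highest library of any other group, which for ETH 3 h the rule had set. The ETH 24 h libraries of the ETH-up sum lay above those at MJ 24 h only narrowly, at 9768 against 9300 CPM. By library totals the genes at the minimum level also stood higher at ETH 24 h than at MJ 24 h, by a median log2 ratio of 0.125. Genes of high level weigh most in such sums, so they do not describe the set as a whole.

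**Figure D2:**
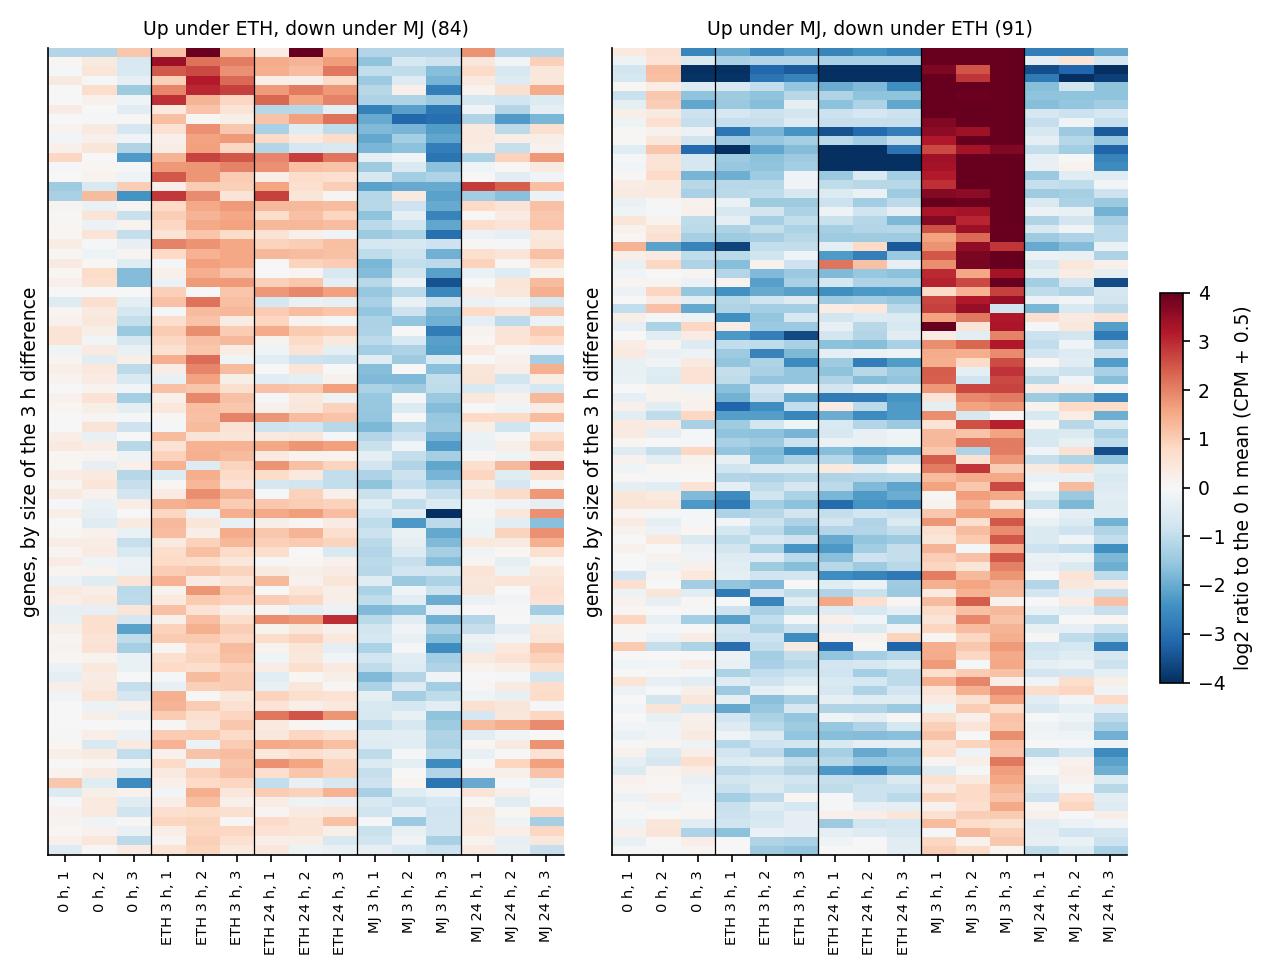
Each row is a gene and each column a library, and the colour is the log2 ratio of CPM + 0.5 to the 0 h mean (red above, blue below, shown from -4 to 4), with the 84 ETH-up genes at left and the 91 MJ-up genes at right. The red block of the MJ-up genes stands in the 3 MJ 3 h libraries, while their ETH 3 h and ETH 24 h columns are blue.

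Libraries of 1 group did not carry the pattern equally. The median log2 ratio of the ETH-up genes to the 0 h mean was 0.77, 1.20 and 1.01 in ETH 3 h replicates 1 to 3, and -1.10, -0.64 and -1.56 in MJ 3 h replicates 1 to 3. For the MJ-up genes it was -1.13, -1.20 and -1.11 at ETH 3 h and 1.44, 1.43 and 2.02 at MJ 3 h. MJ 3 h replicate 3 stood farthest from 0 h in both sets, and it was the highest of its group for 70 of the 91 MJ-up genes. MJ 3 h replicate 2 was the least moved for the ETH-up genes and the highest of its group for 62 of the 84. Within groups the members varied more than other genes, with a median coefficient of variation at MJ 3 h of 0.417 for ETH-up and 0.493 for MJ-up genes beside 0.208 for all genes at the minimum level.

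Leaving out a single library also changed how many genes were taken. Without ETH 3 h replicate 1 the rule would take 129 ETH-up and 196 MJ-up genes, and without MJ 3 h replicate 2 it would take 155 and 122. A 3 h library left out also leaves the no-overlap condition, which fewer libraries meet more easily, so part of a rise can be built in. In both first replicates at 3 h the 36 transcription factors of the study's turquoise module were summed higher than elsewhere, at 1366 CPM in ETH 3 h replicate 1 and 1748 CPM in MJ 3 h replicate 1, against 476 to 716 CPM in the other 13 libraries. With both of these libraries left out, an alternative planned from the study's tables, the sets would hold 133 and 151 genes, of which 64 and 75 are among the 84 and 91. The part of that difference between libraries in the membership was not tested.

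**Figure D3:**
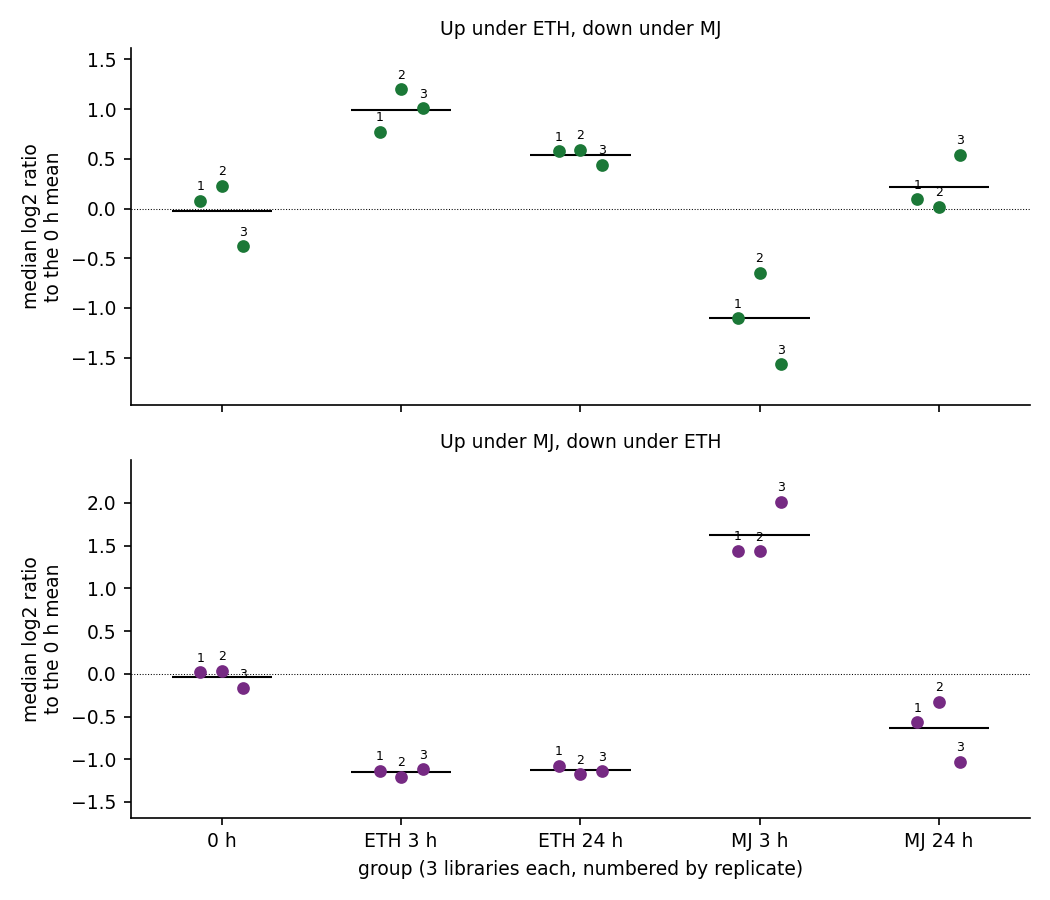
Points are libraries, numbered by replicate, placed by the median log2 ratio to the 0 h mean over the 84 ETH-up genes (top) and the 91 MJ-up genes (bottom), and lines are means of the 3 libraries. At MJ 24 h, replicate 3 lies at 0.54 for the ETH-up and at -1.03 for the MJ-up genes, apart from the other 2 replicates.

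The identity of most members is not known from the tables used here. Of the 175 genes, 3 had a match to an Arabidopsis gene in the part of the study's annotation table that could be read (1022 gene lines, 539 with such a match), 172 are given by ID only, and none of the 104 genes that the study's other tables name was among them. None of the 13 MIA enzymes, 9 ethylene signalling genes, or 30 green, 13 pink and 36 turquoise transcription factors named there met the rule. Neither did any of the 27 kinases, 25 cell wall genes, 12 ribosomal proteins or 16 growth hormone genes found by their match text. The rule took only 1.12% of all genes at the minimum level, so having no member does not set lists of this size apart. Some listed genes were below that level, which 11 of the MIA enzymes and 26 of the turquoise factors reached. Among the lists by match text, 1 of 25 transporters, 1 of 9 P450 and 2-oxoglutarate oxygenases and 1 of 31 transcription factors were members. The matched members, 2 ETH-up and 1 MJ-up gene, are too few to describe the sets by function.

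CRO_000102, an ETH-up gene, matches the Arabidopsis oligopeptide transporter OPT3, which in Arabidopsis carries iron in the phloem and takes part in iron signalling from shoot to root. The study's annotation places it at positions 27489 to 28356 of the plus strand of cro_scaffold_3066389. Its level was 128, 102 and 133 CPM in the 0 h libraries, 215, 349 and 368 CPM at ETH 3 h and 300.3, 303 and 283 CPM at ETH 24 h. After MJ it was 57.3, 69.6 and 28.1 CPM at 3 h and 199, 172 and 261 CPM at 24 h. Every ETH 3 h library was above all of the 0 h libraries and every MJ 3 h library below them, and at 24 h the level after either hormone was above 0 h. At 24 h the ETH libraries lay above the MJ libraries without overlap, yet the fitted log2 difference of 0.37 (SE 0.31) did not pass the edgeR test (adjusted p = 0.658).

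CRO_000105, also ETH-up, matches an Arabidopsis 2-oxoglutarate and iron dependent oxygenase (AT4G10490) and a rice entry described as gibberellin 20 oxidase 2. Oxygenases of this superfamily have many roles in plants, gibberellin, flavonoid and alkaloid synthesis among them, and the role of CRO_000105 is not known. The gene lies at 2 to 809 of the minus strand of cro_scaffold_3063010. Its level was low, at 4.40, 5.16 and 2.27 CPM in the 0 h libraries, 6.26, 15.4 and 8.97 CPM at ETH 3 h, and 0.804, 0.729 and 0.446 CPM at MJ 3 h. At 24 h it was 1.32, 2.66 and 1.69 CPM after ETH and 5.36, 1.67 and 6.40 CPM after MJ. The ETH mean had thus gone from the highest of the groups at 3 h to below 0 h at 24 h, and the hormones overlapped at 24 h (log2 difference -1.37, SE 0.49, adjusted p = 0.219, edgeR).

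CRO_000734 was the only MJ-up gene with a match. It matches the Arabidopsis bHLH gene AT5G46760, known there as MYC3, one of the transcription factors that carry out the jasmonate response, and it lies at 3435 to 4766 of the minus strand of cro_scaffold_3065433. Its counts were 8, 71 and 0 at 0 h and 626, 679 and 4388 at MJ 3 h, or 25.2, 22.5 and 163 CPM in the latter. At ETH 3 h the counts were 2, 0 and 5, at ETH 24 h 4, 0 and 0, and at MJ 24 h 0 in each library. The gene was thus close to absent from every group but MJ 3 h, and within that group replicate 3 was far above the others. The 0 h libraries overlapped with those of ETH 3 h, so its lower mean under ETH rests mainly on 1 control library, and no fold is given at 24 h where both groups were at or near 0.

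**Figure D4:**
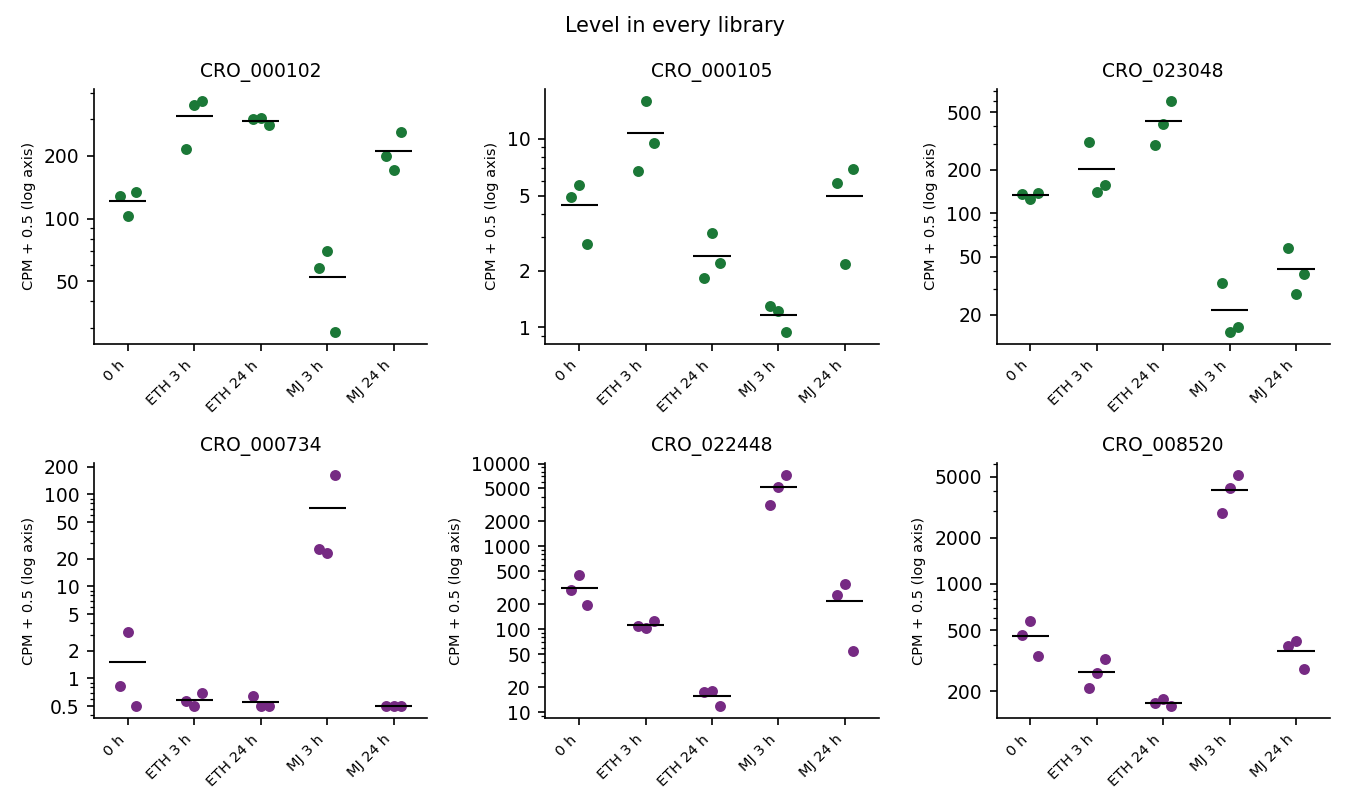
Level in every library (points, CPM + 0.5 on a log axis) with the group mean (lines), for 3 ETH-up genes in the top row and 3 MJ-up genes in the bottom row. CRO_023048 kept ETH above MJ at 24 h without overlap, and CRO_022448 reached 3202 to 7308 CPM at MJ 3 h.

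The ETH-up genes of highest level were CRO_025587 and CRO_021895, both without a match. CRO_025587 was at 588, 602 and 580 CPM at 0 h, at 1147, 588 and 1285 CPM at ETH 3 h and at 208, 276 and 98.4 CPM at MJ 3 h. At 24 h it was at 1950, 2236 and 1847 CPM after ETH and at 730, 804 and 1581 CPM after MJ. It was highest at ETH 24 h, and at 3 h one ETH library stayed within the 0 h range. CRO_021895 was at 579, 452 and 584 CPM in the 0 h libraries, 930, 1531 and 1750 CPM at ETH 3 h and 247, 303 and 133 CPM at MJ 3 h. At 24 h it was at 1335, 1337 and 1256 CPM after ETH and 934, 766 and 1206 CPM after MJ. Neither passed the test at 24 h (log2 differences 0.84 and 0.31, adjusted p = 0.331 and 0.735, edgeR), while limma voom called CRO_025587 higher after ETH (adjusted p = 0.0365).

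CRO_021895, CRO_000102 and CRO_007574 changed as one. CRO_000102 was 0.211 to 0.232 times CRO_021895 and 5.32 to 6.17 times CRO_007574 in all 15 libraries. The SD of the log2 ratio over the libraries was 0.0463 for the first pair, beside a median of 0.812 over the 3486 pairs of ETH-up genes. Such a ratio was also kept by CRO_001793 and CRO_001794 in this set, and by CRO_004436 with CRO_004437 and CRO_022448 with CRO_024951 in the MJ-up set (SD under 0.1 in all 6 pairs, which hold 5 ETH-up and 4 MJ-up genes). These genes may not be independent, and whether they share reads, or are parts or copies of 1 gene, was not tested. Likewise CRO_001594 had 5 similar counterparts with consecutive IDs in a newer genome, so its counts are uncertain.

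The largest gap between the hormones at 3 h in the ETH-up set was that of CRO_019170. It was at 36.7, 53.2 and 24.7 CPM in the 0 h libraries, 212, 240.0 and 137 CPM at ETH 3 h and 18.9, 18.6 and 11.3 CPM at MJ 3 h. The lowest ETH library was thus 7.05 times the highest MJ library, with 0.5 CPM added to both. CRO_010579 followed with a gap of 6.48 times, at 711, 298 and 275 CPM at ETH 3 h and 21.5, 42.0 and 36.9 CPM at MJ 3 h. At 24 h both still stood higher after ETH in every library (CRO_019170 at 89.6 to 165 CPM against 24.1 to 64.9, CRO_010579 at 173 to 214 CPM against 61.8 to 130.1). The log2 differences at 24 h, 1.22 and 0.91, did not pass the edgeR test (adjusted p = 0.15 and 0.291). CRO_019170 was called by DESeq2 (adjusted p = 0.0373) and by limma voom (adjusted p = 0.00733), and CRO_010579 by limma voom only (adjusted p = 0.00416).

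In the MJ-up set the gaps were wider. CRO_025476 was at 4.80, 5.74 and 0.160 CPM at 0 h, at 0.513, 0.201 and 0.365 CPM at ETH 3 h and at 249, 181 and 926 CPM at MJ 3 h, a gap of 179 times. By 24 h it was at 0.102 to 0.506 CPM after MJ, below most of the 0 h libraries. CRO_018150 was at 3.83, 4.55 and 2.35 CPM in the 0 h libraries, 2.15, 1.57 and 0.893 CPM at ETH 3 h and 161, 217 and 362 CPM at MJ 3 h, a gap of 61.0 times, and it was at 0.756 to 1.95 CPM at MJ 24 h. Both were thus high in the MJ 3 h libraries only.

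The MJ-up genes of highest level were CRO_022448 and CRO_008520. CRO_022448 was at 295, 457 and 196 CPM in the 0 h libraries, 109, 103 and 124 CPM at ETH 3 h and 3202, 5243 and 7308 CPM at MJ 3 h. At 24 h it was at 16.9, 17.7 and 11.3 CPM after ETH and at 258, 349 and 54.5 CPM after MJ, so that its mean after ETH was lower at 24 h than at 3 h, while MJ 24 h replicates 1 and 2 were back in the 0 h range. CRO_008520 was at 464, 573 and 338 CPM in the 0 h libraries, 209, 263 and 322 CPM at ETH 3 h and 2910, 4202 and 5133 CPM at MJ 3 h. At 24 h it was at 168, 176 and 159 CPM after ETH and 393, 422 and 276 CPM after MJ, without overlap (log2 difference -1.26, SE 0.29, adjusted p = 0.0622, edgeR). The gene was called by DESeq2 (adjusted p = 0.000696) and limma voom (adjusted p = 0.000207). It was also called by edgeR with only the 24 h groups in the fit (adjusted p = 0.0323) and without MJ 24 h replicate 3 (adjusted p = 0.0413).

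At 24 h the levels had moved back towards 0 h after MJ in the ETH-up set, and both hormones were below 0 h for many MJ-up genes. Of the ETH-up genes, 41 (48.8%) were still past 1.5-fold above 0 h at ETH 24 h and 7 were past it below, beside 8.33% and 9.47% of the 15674 genes at the minimum level. At MJ 24 h their lower level was largely gone, with 4 genes past 1.5-fold below 0 h and 23 (27.4%) past it above, beside 10.4% and 4.08% of all genes. Of the MJ-up genes, 69 (75.8%) were still past 1.5-fold below 0 h at ETH 24 h and 2 above. At MJ 24 h, 47 of them (51.6%) were past 1.5-fold below 0 h, and 1 was above. The 0 h libraries were used by the rule, so these counts carry no test.

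The 0 h libraries themselves differed in their jasmonate genes. The 3 genes with a match text for jasmonate (1 without any count) were summed to 788, 593 and 102 CPM in 0 h replicates 1 to 3. The sums were 186 to 361 CPM at ETH 3 h, 190.1 to 261 CPM at ETH 24 h, 2421 to 5685 CPM at MJ 3 h and 104 to 228 CPM at MJ 24 h. At 0 h, replicates 1 and 2 thus stood above all ETH and MJ 24 h libraries, and replicate 3 below all of the treated ones. Against replicate 3 alone, an alternative chosen after seeing the data, 61 ETH-up genes were past 1.5-fold above 0 h at ETH 24 h and 52 at MJ 24 h, beside 20.7% and 15% of all genes. Against it, 47 MJ-up genes were past 1.5-fold below 0 h at ETH 24 h and 28 (30.8%) at MJ 24 h, beside 11.2% and 13% of all genes. The counts of MJ-up genes below 0 h at 24 h were thus smaller against replicate 3, yet their shares stayed above those of all genes. The count of ETH-up genes above 0 h at MJ 24 h also depended on the 0 h libraries used. Without 0 h replicate 3 it was 15, with 10 ETH-up genes below. The part of the jasmonate genes in these values was not tested.

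Opposite movement past 1.5-fold was met again at 24 h by few members, and the share of all genes that met it was not computed. These were 3 ETH-up genes, CRO_009241, CRO_013656 and CRO_023048, and 1 MJ-up gene, CRO_018350. CRO_018350 passed narrowly at MJ 24 h (log2 ratio 0.5895), and its ETH 24 h and MJ 24 h libraries overlapped. CRO_013656 was at 69.9, 14.4 and 11.05 CPM at ETH 24 h. Neither of these 2 passed the edgeR test between the hormones at 24 h (adjusted p = 0.452 for CRO_018350 and 0.288 for CRO_013656). At both hormones the 24 h level was within 1.5-fold of 0 h for 30 ETH-up and 11 MJ-up genes, with no such share over all genes computed. Taken singly, 82.2% of all genes at the minimum level were within it at ETH 24 h and 85.5% at MJ 24 h. The shares were 42.9% and 67.9% for the ETH-up genes, and 22.0% and 47.3% for the MJ-up genes.

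The comparison of ETH 24 h with MJ 24 h asks whether the hormones still differed a day after the spray. It uses 6 libraries that did not enter the rule except for the minimum level. Calls needed a fold above 1.5 and an adjusted p (Benjamini-Hochberg) under 0.05 in edgeR's quasi-likelihood test, run on 18008 genes in all 15 libraries. All 175 members passed the filter on low counts. Among the ETH-up genes 6 (7.14%) were higher at ETH 24 h and 1 (1.19%) was lower, beside 0.6% and 0.439% of all genes tested (both directions 1.04%). Among the MJ-up genes 5 (5.49%) were lower at ETH 24 h and 0 were higher. The other 77 ETH-up and 86 MJ-up genes were not called, which does not show that they were equal.

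Before adjustment, p was under 0.05 for 17 ETH-up genes that were higher and 6 that were lower after ETH, and for 0 MJ-up genes that were higher and 33 that were lower, where 6.9% of all genes were higher and 7.94% lower. DESeq2 called 10 ETH-up genes higher and 1 lower and 18 MJ-up genes lower and 0 higher (all genes 1.94% higher, 2.52% lower). Limma voom with quality weights called 13 ETH-up genes higher and 3 lower and 29 MJ-up genes lower and 0 higher (all genes 3.75% higher, 5.44% lower). The count of calls thus depended on the tool. In each of the 3 tools, run on the same libraries, no MJ-up gene was called higher after ETH. The share of all genes called higher was also low (0.6% by edgeR), so this 0 says little by itself.

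Over the whole sets the difference at 24 h was larger in size for the MJ-up genes. Their fitted log2 difference, ETH 24 h minus MJ 24 h, had a median of -0.78, with 74 genes below 0 and 17 above. The median was the same with 4 members that had no count in a whole group set to a floor of 3 counts over the group. A median moves little when so few values change, so this does not show that low counts had no effect. No range is given for this set, as its highest value is that of CRO_000734, which was at or near 0 in both groups. Many MJ-up genes were low at 24 h, which makes their differences less precise. The lower quartile of their group means was 0.777 CPM at ETH 24 h and 1.33 CPM at MJ 24 h, beside 14.2 and 9.31 CPM for the ETH-up genes. For the ETH-up genes the median was 0.12 (-1.55 to 3.29), with 48 above 0 and 36 below. Over all genes tested the median was 0.00 and 50.1% were above 0. Scaling by library totals alone would shift the median of all genes to 0.13 and those of the sets to 0.24 and -0.63.

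**Figure D5:**
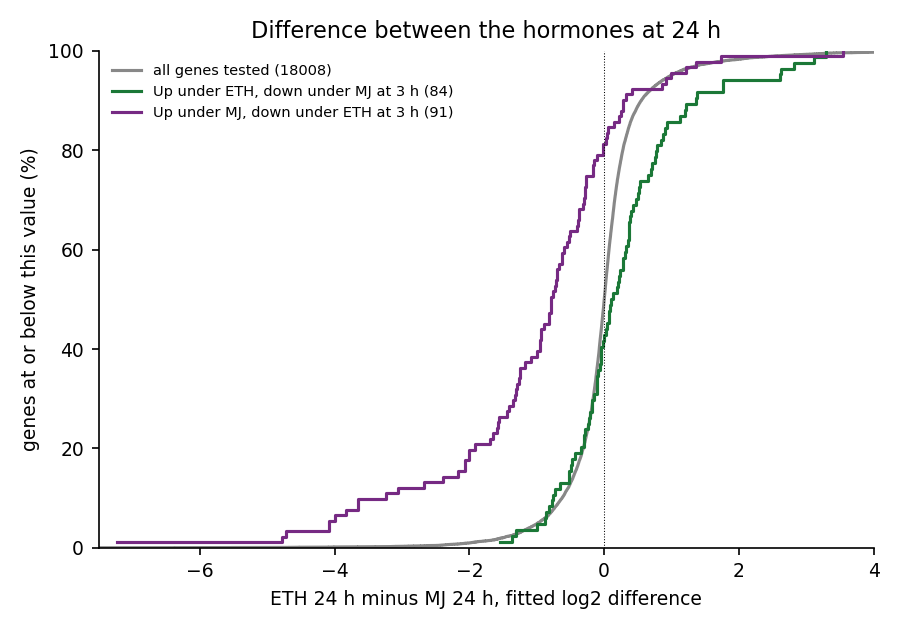
Cumulative share of genes (vertical, %) at or below a fitted log2 difference, ETH 24 h minus MJ 24 h (horizontal), for the 84 ETH-up genes, the 91 MJ-up genes and all 18008 genes tested. The MJ-up curve lies left of that of all genes below 0 (median -0.78), and the ETH-up curve parts from it mainly above 0 (median 0.12).

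By overlap of libraries, 24 of the 84 ETH-up genes (28.6%) had all 3 ETH 24 h libraries above all 3 MJ 24 h libraries, near the 25.1% of all genes, and 3 had the reverse. For the MJ-up genes, 28 of 91 (30.8%) had all 3 MJ 24 h libraries above, beside 7.51% of all genes, and 3 had the reverse. With totals scaled by TMM, the share of all genes was 15.5% with ETH above and 14% with MJ above, and the members' counts were 21 ETH-up genes (25.0%) and 32 MJ-up genes (35.2%).

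Of the 6 ETH-up genes called higher at ETH 24 h, CRO_023048 differed most. Its 0 h level was 135, 126 and 137 CPM, and it stood at 294, 415 and 600.2 CPM at ETH 24 h against 56.9, 27.2 and 37.4 CPM at MJ 24 h (log2 difference 3.29, SE 0.39, adjusted p = 0.0032, edgeR). At 3 h it had been at 309, 140.4 and 156 CPM after ETH and 32.4, 14.7 and 16.0 CPM after MJ, so the difference from 0 h was larger at 24 h after ETH and smaller after MJ. CRO_006410 was at 55.9, 52.8 and 78.1 CPM at ETH 24 h and at 16.2, 19.2 and 14.97 CPM at MJ 24 h (log2 difference 1.76, SE 0.19, adjusted p = 0.00154, edgeR). These 2 genes were called under all 14 alternatives of the fit.

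The other ETH-up calls were lost in some of the fits with fewer libraries, although the differences kept their direction. CRO_009241 was at 53.9, 32.4 and 42.9 CPM at ETH 24 h and 6.22, 5.94 and 7.09 CPM at MJ 24 h (log2 difference 2.62, adjusted p = 0.0127), and leaving out ETH 24 h replicate 1 or 3, or replicate 1 or 2 of MJ 24 h, ended this call (adjusted p between 0.05 and 0.0845). CRO_008259 was at 13.4, 12.3 and 29.6 CPM at ETH 24 h and 1.20, 3.31 and 2.68 CPM at MJ 24 h (log2 difference 2.81, adjusted p = 0.0499), a call lost without any one of the 6 libraries and without the filter on low counts (adjusted p = 0.0531). With 1 of the libraries left out the log2 difference was 2.38 to 2.80 for CRO_009241 and 2.30 to 3.12 for CRO_008259. CRO_032018 (log2 difference 1.76) and CRO_005569 (0.76) were called at adjusted p = 0.0483 and 0.0385, all by edgeR, and of the 6 libraries left out in turn these 2 calls held only without MJ 24 h replicate 3. Both were also lost with the replicate block (adjusted p = 0.0694 and 0.0754) and with only the 24 h groups in the fit (adjusted p = 0.066 and 0.0501), and CRO_032018 without the filter on low counts. In each of these 4 genes every ETH 24 h library stood above every MJ 24 h library.

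CRO_031625 went the other way. It was at 25.3, 35.4 and 52.3 CPM at ETH 3 h and 12.2, 15.4 and 8.85 CPM at MJ 3 h, but at 32.2, 25.7 and 23.9 CPM at ETH 24 h against 60.0, 68.6 and 92.2 CPM at MJ 24 h. It was the only ETH-up gene called lower at ETH 24 h (log2 difference -1.55, SE 0.29, adjusted p = 0.0289, edgeR), and the call was lost without any one of the 6 libraries and with the replicate block (adjusted p = 0.055).

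The 5 MJ-up genes called lower at ETH 24 h were led by CRO_024951 and CRO_022448, which kept a ratio of 2.09 to 2.60 and may not be independent. CRO_024951 was at 6.66, 7.08 and 4.34 CPM at ETH 24 h and 112, 143 and 21.6 CPM at MJ 24 h (log2 difference -4.09, SE 0.63, adjusted p = 0.0127). CRO_022448, whose levels are given above, differed by -4.0 (SE 0.62, adjusted p = 0.0127). In both, MJ 24 h replicate 3 was far below the other MJ 24 h libraries, and both calls were lost without any one ETH 24 h library or without MJ 24 h replicate 1, at adjusted p up to 0.0799 (edgeR).

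CRO_019775 was at 2.16, 1.88 and 1.52 CPM at ETH 24 h and 14.3, 21.2 and 6.72 CPM at MJ 24 h (log2 difference -3.06, SE 0.44, adjusted p = 0.00951, edgeR) and was called under 13 of 14 alternatives, all but the one without ETH 24 h replicate 3. CRO_023529 had little spread, at 28.5, 28.9 and 29.5 CPM at ETH 24 h and 54.7, 55.2 and 43.1 CPM at MJ 24 h (log2 difference -0.95, SE 0.15, adjusted p = 0.0135, edgeR). It was at 68.5, 63.9 and 65.7 CPM in the 0 h libraries, 28.8, 27.96 and 29.9 CPM at ETH 3 h and 159, 188 and 193 CPM at MJ 3 h, so its levels after ETH were close at both times. CRO_005061 was near the limit of detection at ETH 24 h, with 0.0378 to 0.142 CPM against 0.928 to 1.74 CPM at MJ 24 h (log2 difference -3.83, adjusted p = 0.023, edgeR). The calls of CRO_023529 and CRO_005061 also held, of the 6 libraries left out in turn, only without MJ 24 h replicate 3.

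MJ 24 h replicate 3 touched several of these values. Over the MJ-up genes its median log2 ratio to 0 h was -1.03, beside -0.56 and -0.33 in replicates 1 and 2 and -1.17 to -1.07 in the ETH 24 h libraries. Over the ETH-up genes it was 0.54, beside 0.09 and 0.02 in the other MJ 24 h libraries and 0.44 to 0.59 at ETH 24 h. Without it, 8 MJ-up genes were called lower and 5 ETH-up genes higher at ETH 24 h, and 0 ETH-up genes lower, while the same fit called 71 genes higher and 127 lower over all genes, against 108 and 79 with it. The 9 ethylene signalling genes were summed to 2950 CPM in this library, against 1590 and 1931 CPM in the other MJ 24 h libraries and 5386 to 6095 CPM at ETH 24 h. The 6 photosynthesis genes used as leaf markers were summed to 2707 CPM in it, against 4151 and 5108 CPM in the others and 2438 to 3161 CPM at ETH 24 h. Over all groups these markers ranged from 1291 to 5597 CPM, and of the 6 only CRO_000310, which matches a chloroplast gene, had no count. Most of each sum came from CRO_000717, which matches PSAF and was at 1067 to 5124 CPM. The sums of these markers thus mainly follow 1 gene. The part of these differences in the members' values was not tested.

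Zero counts limit a few of the ratios. CRO_003607 had no count in the 3 MJ 3 h libraries, CRO_015163, CRO_019653 and CRO_032455 had none at ETH 24 h and CRO_000734 none at MJ 24 h, so their ratios depend on the 0.5 CPM added or on the fit and are no bounds. Libraries held totals of 23710688 to 31168281 counts, with a median of 26443250.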

How the data were processed

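Leaf RNA of 15 libraries in 5 groups was sequenced by the authors from a stranded mRNA kit, aligned with HISAT2, for which the submitters' processing notes give version 2.0.4, and counted per gene with HTSeq. The authors deposited raw counts for 33829 genes. The sources used here do not give which of the genome sources named in the methods was used, nor the strand setting of the counting, so antisense and overlapping genes may share reads. The extraction text of the labels names an animal tissue and was taken as left from another study, and the age of the seedlings differs between labels and methods. No libraries were identical, 0 rows named no gene and 0 columns were of unknown samples.

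The members, lists and tests were chosen with earlier results of these data known. CPM was computed from library totals for the rule and for the levels. The rule for named genes took every member with a match, and in each direction the 2 of highest mean CPM, the 2 with the largest gap at 3 h and the 3 called at 24 h with the largest difference. The remaining calls, and genes at the threshold, at 0 or in pairs, were named after their values were seen. ETH 24 h was compared with MJ 24 h by edgeR 4.0.16 (quasi-likelihood, TMM, filterByExpr, R 4.3.3), with all 15 libraries in the fit and Benjamini-Hochberg adjustment over 18008 genes. TMM factors were 0.888 to 1.14, with a common biological coefficient of variation of 0.342. Standard errors are the log2 difference divided by the square root of F. The code was tested on simulated data. Alternatives were DESeq2 1.42.0, limma 3.58.1 voom, other scalings, filters and fold thresholds, only the 24 h groups in the fit, a replicate block, each library left out, and 0 h libraries left out (added after seeing the data). The RefSeq gene table (37298 lines) matched 0 of the IDs, and no sequence is shown. Figures were drawn with matplotlib 3.10.9.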

Additional observations from a re-analysis of the deposited data

Results flagged for a closer look

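In 6 members the libraries of the hormones did not overlap at 3 h nor at 24 h, but the order was turned at 24 h. The difference between the times was not tested. Among the ETH-up genes these were CRO_031625 (log2 difference ETH 24 h minus MJ 24 h of -1.55) and the neighbouring IDs CRO_001793 (-0.88) and CRO_001794 (-0.86), which kept a ratio of 0.837 to 1.03 over the libraries. CRO_001793 was at 26.2, 26.5 and 21.3 CPM at ETH 24 h and 55.2, 26.7 and 42.5 CPM at MJ 24 h, so that replicate 2 of MJ 24 h was barely above the ETH libraries. Among the MJ-up genes they were CRO_012263 (0.86), CRO_025253 (0.28) and CRO_026506 (0.99). CRO_025253 was at 38.8, 16.2 and 30.2 CPM at ETH 3 h and 300.0, 293 and 399 CPM at MJ 3 h, but at 80.4, 88.8 and 94.2 CPM at ETH 24 h and 63.1, 74.0 and 59.9 CPM at MJ 24 h. The 3 ETH-up genes are 3.57% of their set, beside 7.51% of all genes with every MJ 24 h library above, and the 3 MJ-up genes are 3.3% of theirs, beside 25.1% of all genes with every ETH 24 h library above, so both shares are below the background. With totals scaled by TMM the turned order at 24 h was seen in 4 ETH-up and 1 MJ-up genes. Of the 6, only CRO_031625 passed the edgeR test at 24 h.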

How the results depend on the processing

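The number of members moved most with the threshold and with single libraries. At a log2 threshold of 1 the rule took 17 ETH-up and 37 MJ-up genes, and with both first replicates at 3 h left out it took 133 and 151. Leaving out 1 library gave 67 to 155 and 86 to 196. TMM-scaled totals gave 64 and 117 (35.4% ETH-up in place of 48.0%), of which 61 and 91 were among the 84 and 91. Calls between ETH 24 h and MJ 24 h over all genes were 108 higher and 79 lower, with DESeq2 349 and 454, with voom 675 and 979, with only the 24 h groups in the fit 296 and 256, and with library totals 176 and 86 (67.2% higher in place of 57.8%). ETH-up genes called higher were 10 with DESeq2 and 13 with voom, and those called lower 3 with voom. MJ-up genes called lower were 18 with DESeq2, 29 with voom and 10 with only the 24 h groups in the fit. Without 1 of the 24 h libraries, 16 to 71 genes were called higher and 4 to 127 lower over all genes, 2 to 5 ETH-up genes higher and 0 lower, and 0 to 8 MJ-up genes lower. The set medians kept their sign, at 0.08 to 0.30 and -0.97 to -0.52. Alternatives for 0 h were chosen after seeing the data. Without 1 library of 0 h, 34 to 46 ETH-up genes were past 1.5-fold above 0 h and 4 to 7 below at ETH 24 h, and 15 to 35 above and 3 to 10 below at MJ 24 h. MJ-up genes were 3 above and 63 to 68 below at ETH 24 h, and 1 to 5 above and 38 to 51 below at MJ 24 h. With 0 h replicates 1 and 2 left out together, ETH-up genes were 61 above and 2 below at ETH 24 h and 52 above and 3 below at MJ 24 h, and MJ-up genes 9 above and 47 below, and 13 above and 28 below. The cause of these differences was not tested.

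Replicate numbers did not pair the 24 h libraries, whose deviations from their group means correlated at 0.06, -0.10 and -0.28 for numbers 1 to 3, and 0 of 6 libraries were closest to their own number. At 3 h, where no test was made, the correlations were 0.74, 0.50 and -0.27. With the replicate block, 74 genes were called higher and 44 lower, 4 ETH-up genes higher and 0 lower, and 5 MJ-up genes lower. With 3 libraries a group, the members' median standard error of the 24 h log2 difference was 0.41 (ETH-up) and 0.57 (MJ-up), which limits what could be called.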
